A study of Mus musculus with 6 samples.

Results

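Ribosome biogenesis and nucleolar processing factors were examined in Neuro2a cells, a mouse neuroblastoma line, with and without D-serine. The group was defined by a list of 50 gene symbols, of which 49 had a row in the count table. Noc2l was not analysed here. All 49 passed the filter on low counts, among 13366 tested genes of 24391 in the table. Poly(A) RNA was sequenced from 3 control libraries (vehicle) and 3 libraries of cells given 5 mM D-serine, an amino acid that serves in the brain as a co-agonist at NMDA receptors. Both groups were moved to a medium written as D-MEM(-SG), with 10% FBS, and were harvested after 18 h. All 6 libraries come from 1 cell line. Nothing in the labels says whether the replicates were separate cultures, so p-values measure only the spread between these samples.

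Ribosomes are built in the nucleolus, where RNA polymerase I copies the ribosomal DNA into a long precursor RNA. Small nucleolar ribonucleoproteins (snoRNPs) modify that precursor, the small subunit processome folds and cuts its first part, and a separate set of assembly factors builds the large subunit around the rest. Proliferating cells express these factors strongly, and many of their genes are known targets of the MYC family of transcription factors, which includes the MYCN protein of neuroblastoma.

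Total counts per library lay between 32518483 and 40024265. Of 14 neuroblastoma and neuron markers, 9 were above 10 CPM (counts scaled to library size) in every library, Hand2 and Tubb3 among them, and 3 (Hand1, Nefl and Nefm) were below 1 CPM throughout. Their summed level was 1305 to 1376 CPM in control and 1429 to 1537 CPM with D-serine, without overlap, and the part of this in the results below was not tested. Tubb3 made the largest part of that sum, at 466.6 to 514.5 CPM in control and 552.0 to 623.9 CPM with D-serine. Hand2, Gata2, Stmn2, Elavl4 and Th were also higher in every D-serine library than in every control. The groups overlapped in Phox2a, Gata3, Isl1, Chga and Dbh. Th and Dbh were low, at 1.16 to 2.96 CPM and 1.24 to 1.94 CPM over all libraries. Summed levels of 5 fibroblast markers were 5.70 to 6.09 CPM in control and 4.61 to 6.90 CPM with D-serine, those of 3 endothelial markers 3.13 to 3.79 and 3.16 to 4.03 CPM, and Lum, Aqp4 and Kdr had 0 counts in every library. Summed levels of 4 immune markers were 41.8 to 48.6 and 42.2 to 48.7 CPM, mostly Cd74, and those of 5 glial markers 14.7 to 16.1 and 14.5 to 15.6 CPM, mostly Mbp. D-serine replicate 1 stood apart from the other D-serine libraries: it differed from them by a chi-square per degree of freedom of 17.7 and 13.9, against 3.88 to 6.54 for the other pairs of the same group. Counts of calls and the called members are therefore also given without it.

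The ribosome biogenesis factors differed little between the groups. In the edgeR quasi-likelihood test, 5 of the 49 members (10.2%) were past an adjusted p of 0.05, where 9.74% of all tested genes were, so the share of members called was near the background. Wdr12 and Brix1 rose (2 of 49, against 4.84% of all genes that rose), and Rrs1, Rrp1b and Nol9 fell (3 of 49, against 4.9% of all genes that fell). All 5 act in assembly of the large subunit, and their fold changes were at most 16.3% up and 11.3% down. The median log2 fold change was 0.015 over the 49 members, 27 positive and 22 negative, and 0.0053 over all tested genes. The groups did not overlap in 13 members (26.5%), 7 higher and 6 lower, against 32.9% of all tested genes. Of the 49, 39 had an absolute log2 fold change under 0.1, and the 95% interval lay within 0.2 of 0 in 38. These counts were not taken over all genes. The median absolute log2 fold change was 0.052 in the members and 0.116 in all tested genes. The members were also more abundant, at a median control level of 112 against 28.9 CPM. The part of abundance in their small values was not tested. Without D-serine replicate 1, 6 members were called, the same 5 and Nop16, where 12.5% of all genes were. Log2 fold changes without that library were 0.22 for Wdr12, 0.16 for Brix1, -0.22 for Rrs1, -0.15 for Rrp1b and -0.13 for Nol9. None of the 5 calls held in the edgeR test when control replicate 1, control replicate 2, control replicate 3 or D-serine replicate 3 was left out, when 0.921%, 0.501%, 3.34% and 2.15% of all genes were called. Without D-serine replicate 2, 3 members (6.12%) were called, with 1 of them lower, against 11.6% of all genes. Of the 49 members 8 (16.3%) had an unadjusted edgeR p under 0.05, a share below the 28.2% of all tested genes.

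**Figure D1:**
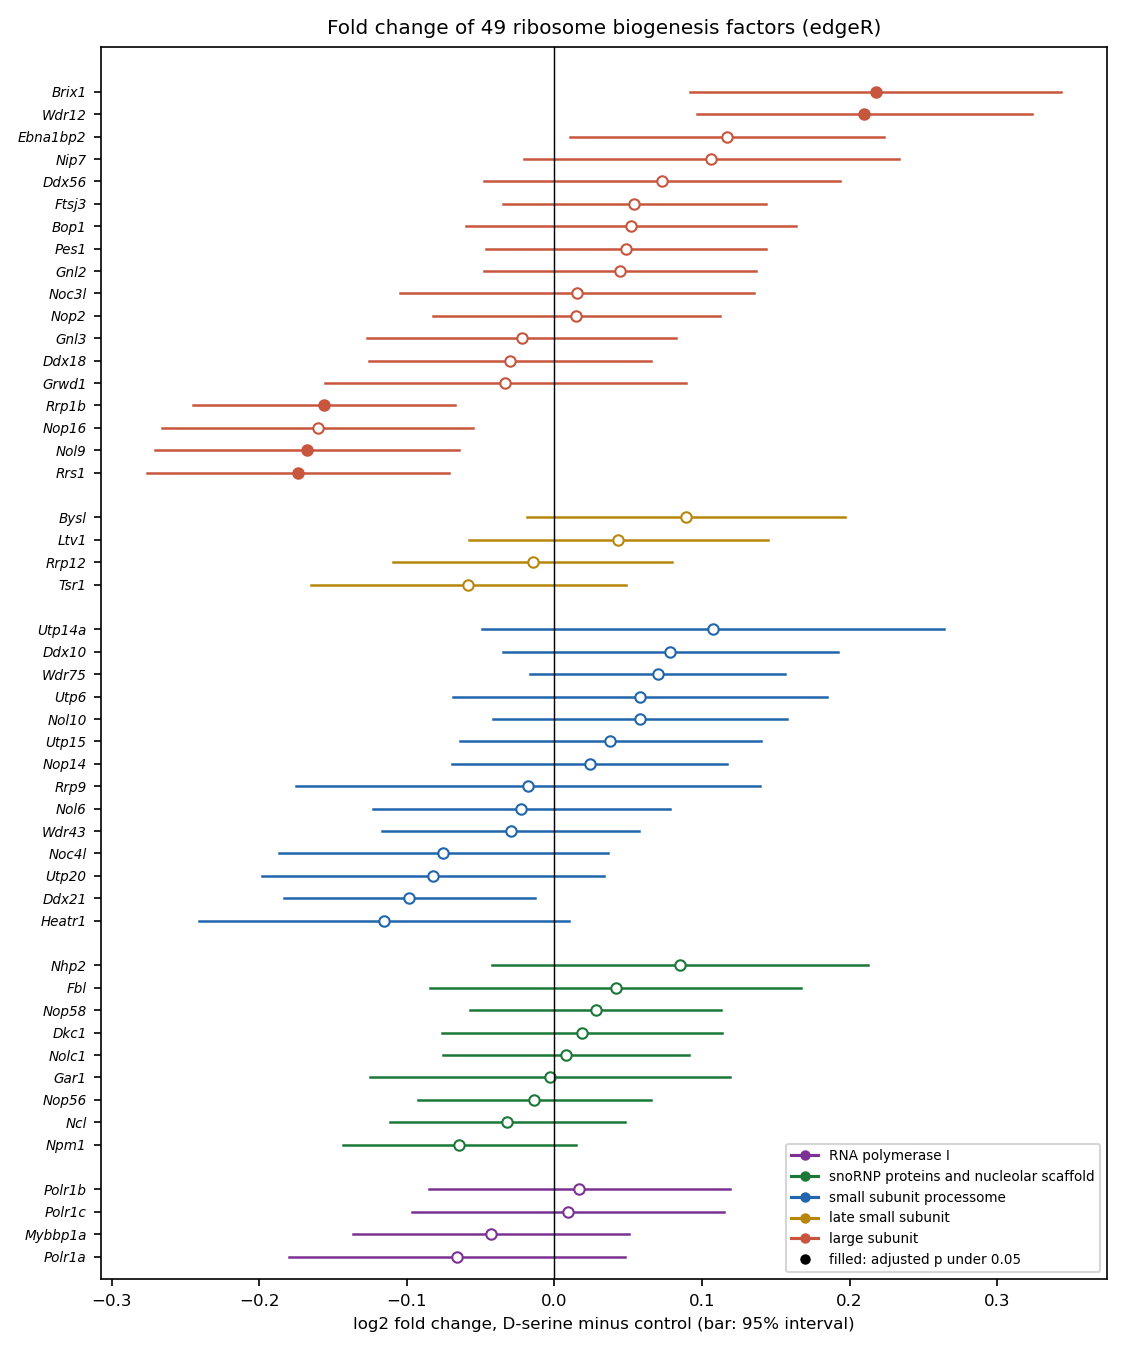
Log2 fold change of each of the 49 measured members (x axis, D-serine minus control; bars are 95% intervals of the edgeR fit), ordered within 5 roles. Filled points mark the 5 genes with an adjusted p under 0.05, all of them in the large subunit group, while the other 44 are open.

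Summed over the 49 members, the level was 10307, 10298 and 10450 CPM in control replicates 1 to 3 and 10350, 10141 and 10158 CPM in D-serine replicates 1 to 3. D-serine replicate 1 lay within the control range and the other D-serine libraries below it. Npm1 and Ncl alone made up 27.9% of the summed control level. Without these 2 genes the sums were 7412, 7450 and 7524 CPM in control and 7473, 7401 and 7388 CPM with D-serine, where D-serine replicates 2 and 3 again lay below all controls. This order depended on the scaling. As a share of each library's total counts, the 49 members held 1.023%, 1.020% and 1.030% in control replicates 1 to 3. With D-serine they held 1.051%, 1.022% and 1.023%. By that measure D-serine replicate 1 was the highest of all libraries, and D-serine replicates 2 and 3 lay within the control range.

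Levels of different genes were compared per kilobase of exon. In control the members spanned 7.22 CPM per kilobase (Utp14a, a factor of the small subunit processome) to 827 CPM per kilobase (Npm1). The next highest were Nop56 at 331, Fbl at 228, Nop58 at 200.4 and Ncl at 178 CPM per kilobase, so the top 5 were all snoRNP core proteins or abundant nucleolar proteins. The treatment of multi-mapping reads is not given in the sources used here, and the level of Npm1, which has many processed pseudogenes, is therefore uncertain.

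**Figure D2:**
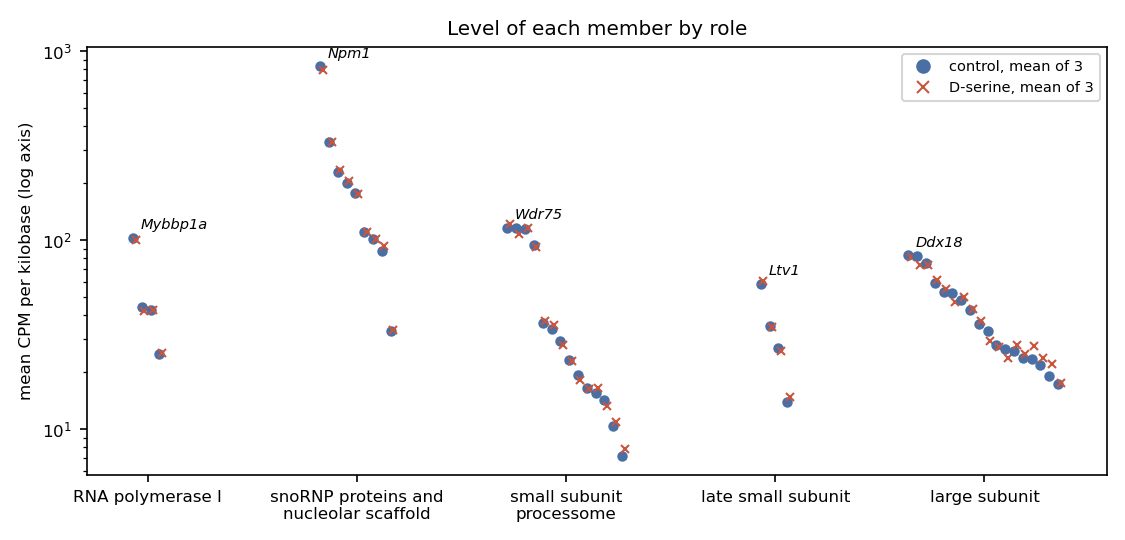
Mean level of each member in CPM per kilobase of exon (y axis, log scale) in the 5 roles, with control as circles and D-serine as crosses, each a mean of 3 libraries. The most abundant member of each role is named. Npm1 lies highest at 827 in control, and circle and cross nearly coincide for most genes.

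In the RNA polymerase I group, 0 of 4 members were past the threshold by edgeR, by DESeq2 (13.5% of the genes it gave an adjusted p) or by limma-voom (9.43% of all genes). At an unadjusted edgeR p under 0.05 there were also 0, against 28.2% of all genes. Mybbp1a, a nucleolar protein that binds the polymerase I machinery, is the most abundant of them per kilobase. Its level was 422.6, 421.5 and 427.1 CPM in control replicates 1 to 3 and 389.5, 427.1 and 417.4 CPM in D-serine replicates 1 to 3. D-serine replicates 1 and 3 were below all controls and D-serine replicate 2 was not. The log2 fold change was -0.043 (SE 0.043, edgeR adjusted p = 0.552). Polr1a, the largest catalytic subunit, was at 262.8, 271.8 and 274.5 CPM in control and at 235.5, 269.7 and 267.6 CPM with D-serine, where only D-serine replicate 1 lay below all controls. The second largest subunit Polr1b had a log2 fold change of 0.017, and Polr1c, shared with RNA polymerase III, one of 0.0095.

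Among the 9 snoRNP and scaffold proteins, 0 were past the threshold by edgeR, DESeq2 or limma-voom, and 0 had an unadjusted edgeR p under 0.05, against 28.2% of all genes. Npm1 encodes nucleophosmin, an abundant nucleolar chaperone. It was at 1424, 1409 and 1431 CPM in control and 1400, 1332 and 1345 CPM with D-serine, so that every D-serine library was below every control. Its log2 fold change was -0.064 (SE 0.036, 95% interval -0.143 to 0.014, edgeR adjusted p = 0.269). With each library's trend on gene length removed, Npm1 was past the threshold (log2 fold change -0.14, edgeR adjusted p = 0.00705). Nucleolin, encoded by Ncl, was at 1471, 1440 and 1495 CPM in control and 1476, 1408 and 1425 CPM with D-serine, with overlap between the groups.

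The box C/D snoRNPs guide ribose methylation of ribosomal RNA. Fbl, their methyltransferase, was at 254.8, 276.7 and 261.5 CPM in control and 299.1, 262.0 and 255.1 CPM with D-serine. D-serine replicate 1 was the highest of all libraries and D-serine replicate 3 among the lowest, so the groups overlapped. Nop56 had a log2 fold change of -0.014 (95% interval -0.093 to 0.066) and Nop58 one of 0.028 (-0.057 to 0.113). In the box H/ACA particles, which convert uridines of ribosomal RNA to pseudouridine, the enzyme Dkc1 had a log2 fold change of 0.019, and its partners Gar1 and Nhp2 had values of -0.0031 and 0.085. Nolc1, a snoRNP chaperone, had one of 0.0081. All 6 of these intervals included 0.

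Introns of several members carry snoRNA genes, and the table listed 11 of them within members' spans, sharing no exonic base with the host. In poly(A) RNA they had few counts. Snord69, in Gnl3, had the most, with 44, 48 and 58 counts in control and 48, 61 and 53 with D-serine. Snord82, in Ncl, had 0 in every library.

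The small subunit processome had 14 members, of which 0 were past the threshold by edgeR, DESeq2 or limma-voom and 1, the RNA helicase gene Ddx21, had an unadjusted edgeR p under 0.05 (7.14%, against 28.2% of all genes). Wdr75, part of the subcomplex that joins the nascent precursor first, is the most abundant per kilobase, and was at 301.3, 299.0 and 308.7 CPM in control and at 325.8, 312.9 and 315.5 CPM with D-serine. All D-serine libraries were above all controls, at a log2 fold change of 0.070 (SE 0.040, edgeR adjusted p = 0.275). Ddx21 was at 554.6, 540.7 and 550.1 CPM in control and 495.2, 523.1 and 518.8 CPM with D-serine, also without overlap (log2 fold change -0.098, SE 0.040, adjusted p = 0.126). Heatr1, another protein of that early subcomplex, had the most negative value in the group. It was at 98.3, 98.0 and 94.0 CPM in control and 81.2, 91.8 and 94.99 CPM with D-serine, so D-serine replicate 3 reached into the control range (log2 fold change -0.12, SE 0.058, adjusted p = 0.211).

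The other 11 processome members had log2 fold changes from -0.082 (Utp20) to 0.11 (Utp14a). Positive values belonged to the helicase Ddx10 (0.078), Utp6 (0.058), Nol10 (0.058), Utp15 (0.038) and Nop14 (0.024). Negative ones belonged to Noc4l (-0.075), Wdr43 (-0.030), Nol6 (-0.022) and the U3 snoRNP protein Rrp9 (-0.018). Utp14a was also without overlap, at 16.7, 17.9 and 18.1 CPM in control and 18.5, 18.5 and 19.9 CPM with D-serine, but it shares 473 exonic bases with a gene on the opposite strand and its interval ran from -0.049 to 0.264.

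In the late small subunit group, 0 of 4 members were past the threshold by edgeR, DESeq2 or limma-voom, and 0 had an unadjusted edgeR p under 0.05, against 28.2% of all genes. Ltv1, a factor that accompanies the small subunit out of the nucleus, is the most abundant per kilobase and was at 102.1, 104.5 and 104.3 CPM in control and 112.2, 105.2 and 103.0 CPM with D-serine, with overlap. Bysl (log2 fold change 0.089, adjusted p = 0.264) had all D-serine libraries above all controls, at 55.1 to 58.6 against 52.5 to 54.0 CPM, and shares 358 exonic bases with Ccnd3 on the opposite strand. Rrp12 had a value of -0.015. Tsr1, with a value of -0.058, shares 1159 exonic bases, 34.2% of its length, with Srr on the opposite strand. Srr encodes serine racemase, the enzyme that makes D-serine, and was at 4.93, 4.02 and 4.06 CPM in control and 4.82, 4.46 and 5.04 CPM with D-serine, with overlap. Without the strand setting of the counting, reads of the shared part of Tsr1 and Srr cannot be assigned.

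The large subunit group held all 5 calls, at 5 of 18 measured members (27.8%, against 9.74% of all genes), with 7 at an unadjusted p under 0.05 (38.9%, against 28.2% of all genes). Among 46 other large subunit factors the share called was 15.2%. The roles were assigned with earlier results of these data known, and a difference between roles was not tested. Wdr12 forms the PeBoW complex with Pes1 and Bop1 and is needed for processing of the large-subunit rRNA. It was at 63.1, 65.0 and 65.8 CPM in control and 73.8, 71.2 and 79.1 CPM with D-serine. Every D-serine library was above every control, and the mean went up from 64.6 ± 1.37 (SD, n = 3) to 74.7 ± 4.02 CPM. This rise was a log2 fold change of 0.21 (SE 0.053, adjusted p = 0.0277 by edgeR). Its partner Pes1 had a log2 fold change of 0.048 (95% interval -0.046 to 0.143) and Bop1 one of 0.052 (-0.060 to 0.163), both with overlapping groups. Whether Wdr12 differed from its partners was not tested. Wdr12 shares 61 exonic bases with Carf on the opposite strand. The deposited table places it on the minus strand of chr1:60133712-60155344, with no build named there.

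Brix1, a factor of early large subunit particles, was at 61.3, 63.6 and 62.6 CPM in control and 78.4, 67.3 and 72.3 CPM with D-serine. D-serine replicate 1 was highest and no library overlapped (mean 62.5 ± 1.17 against 72.7 ± 5.56 CPM, SD, n = 3). The log2 fold change was 0.22 with an SE of 0.058 (adjusted p = 0.0351 by edgeR). Without D-serine replicate 1 the log2 fold change was 0.16 and the gene was still called.

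Rrs1 works with Rpf2 to bring the 5S ribonucleoprotein into the large subunit. It was at 165.4, 167.9 and 174.1 CPM in control and 158.5, 147.3 and 144.1 CPM with D-serine, with no overlap. The control mean of 169 ± 4.48 CPM compared with 149.96 ± 7.57 CPM under D-serine (SD, n = 3), a fall at a log2 fold change of -0.17 (SE 0.047, adjusted p = 0.0379 by edgeR). Rpf2 itself, named here after its values were seen, moved the other way: it was at 59.5, 64.1 and 58.7 CPM in control and 75.0, 67.2 and 70.0 CPM with D-serine (log2 fold change 0.22, SE 0.057, adjusted p = 0.0316).

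Rrp1b was at 132.7, 135.0 and 133.1 CPM in control and 118.8, 119.8 and 121.2 CPM with D-serine, with the narrowest range over the D-serine libraries of the 5 called genes. The log2 fold change was -0.16 (SE 0.041, edgeR adjusted p = 0.0329). Nol9 encodes the polynucleotide kinase that acts on a cut end of the large-subunit rRNA precursor. It was at 129.7, 132.3 and 131.3 CPM in control and 109.8, 119.1 and 121.4 CPM with D-serine, and D-serine replicate 1 was lowest (log2 fold change -0.17, SE 0.048, adjusted p = 0.0437). With upper quartile scaling, and with library totals, the calls of Rrs1, Rrp1b and Nol9 were lost and those of Wdr12 and Brix1 were kept, so that 2 of 49 members (4.08%) were called against 9.92% and 10.1% of all genes. As deposited, Brix1 lies on the minus strand of chr15:10404534-10415692, and on the plus strand lie Rrs1 at chr1:9535489-9537536, Rrp1b at chr17:32173107-32199807 and Nol9 at chr4:151413430-151435603.

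Nop16, described after its values were seen, lay just outside the threshold (log2 fold change -0.16, SE 0.049, edgeR adjusted p = 0.0551). It was at 90.4, 88.3 and 94.2 CPM in control and 84.4, 78.6 and 81.3 CPM with D-serine, with no overlap. DESeq2 called it, at an adjusted p of 0.0363.

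**Figure D3:**
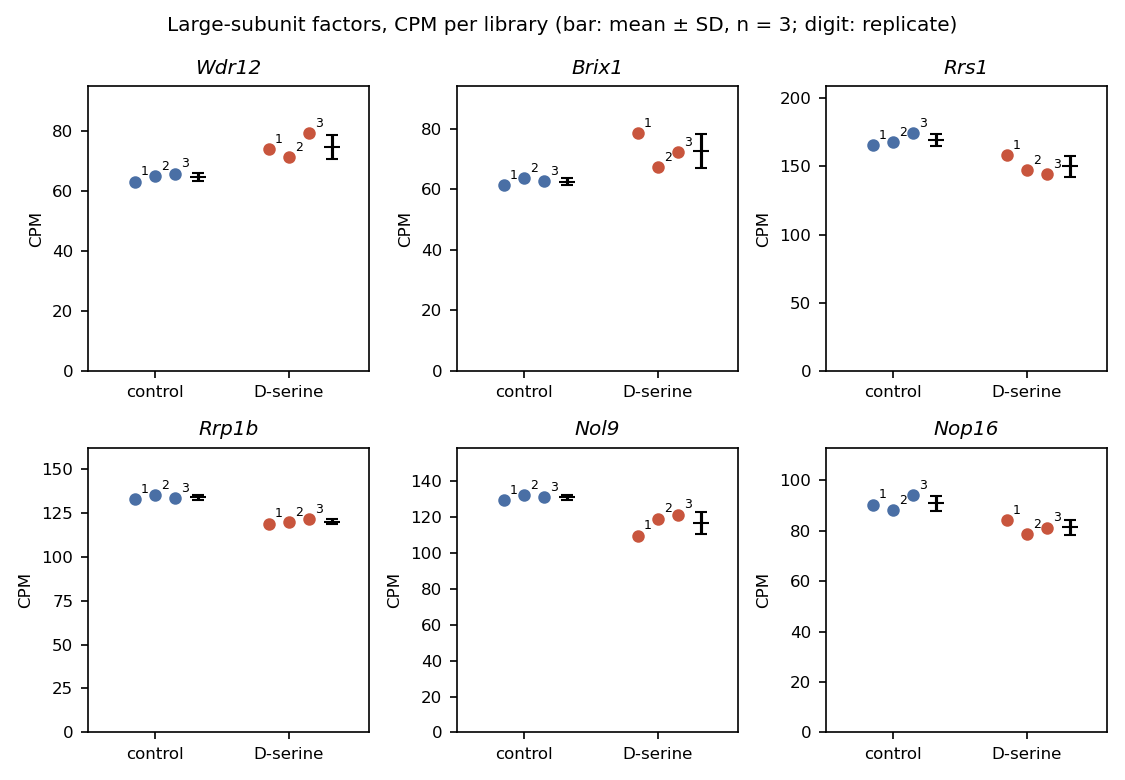
CPM per library (y axis from 0) of the 5 called large subunit factors and Nop16, with control in blue, D-serine in red, the replicate number beside each point and mean ± SD (n = 3) as a bar. In all 6 panels the groups do not overlap: Wdr12 and Brix1 lie higher with D-serine, and Rrs1, Rrp1b, Nol9 and Nop16 lower.

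The remaining 12 measured large subunit factors were not past the threshold. Ebna1bp2 had the largest positive value (0.12, 95% interval 0.0105 to 0.224, edgeR adjusted p = 0.141), at 63.7 to 65.4 CPM in control and 67.5 to 72.9 CPM with D-serine. It shares 603 exonic bases with another symbol on the same strand, which had 0 counts. Positive values were also found for Nip7 (0.11), the helicase Ddx56 (0.073), the rRNA methyltransferase Ftsj3 (0.054), the nucleolar GTPase Gnl2 (0.045), Noc3l (0.015) and Nop2 (0.015), a methyltransferase of the large-subunit rRNA. Gnl3, which encodes nucleostemin, had a value of -0.022 and Grwd1, a chaperone of a ribosomal protein, one of -0.033. The helicase gene Ddx18 is the most abundant of the group per kilobase. It was at 186.2, 184.4 and 191.2 CPM in control and 191.2, 182.6 and 176.4 CPM with D-serine, with overlap (log2 fold change -0.030, SE 0.044, adjusted p = 0.698).

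To show the regulatory sequence of the called genes, RefSeq windows of 300 bases (250 before to 50 after the annotated start, GRCm38.p6, on the gene's strand) were searched on both strands for 4 short motifs. These were CACGTG, the E-box bound by MYC with MAX, CCGGAAG, a core of ETS family sites, TGCGCA, part of the NRF1 site, and AAGATGG, part of the YY1 site. Windows were found for 41 of the 49 measured members, those of Rrs1, Fbl, Npm1, Bop1, Gnl2, Nol6, Rrp12 and Utp6 being missing. Below are 1 window each of Brix1, Wdr12, Nol9 and Rrp1b, with any match to the 4 motifs in capitals. For Wdr12, whose 3 windows differ, the window with a match is shown, and for Nol9 and Rrp1b the first of 2.
Brix1 (chr15:10485888-10486187, minus strand): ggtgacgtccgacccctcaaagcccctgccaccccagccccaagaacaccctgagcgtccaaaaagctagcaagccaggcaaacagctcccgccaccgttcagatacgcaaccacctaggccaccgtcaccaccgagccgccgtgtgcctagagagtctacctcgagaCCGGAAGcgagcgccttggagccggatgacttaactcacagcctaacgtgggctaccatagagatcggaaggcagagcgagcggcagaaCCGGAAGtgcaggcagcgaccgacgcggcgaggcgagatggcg
Wdr12 (chr1:60098085-60098384, minus strand): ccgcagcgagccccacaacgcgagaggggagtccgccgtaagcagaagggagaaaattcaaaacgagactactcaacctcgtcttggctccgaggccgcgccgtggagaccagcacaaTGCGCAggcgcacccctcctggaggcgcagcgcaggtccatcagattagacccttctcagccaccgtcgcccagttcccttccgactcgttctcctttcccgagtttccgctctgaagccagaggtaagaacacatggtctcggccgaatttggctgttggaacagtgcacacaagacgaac
Nol9 (chr4:152039071-152039370, plus strand): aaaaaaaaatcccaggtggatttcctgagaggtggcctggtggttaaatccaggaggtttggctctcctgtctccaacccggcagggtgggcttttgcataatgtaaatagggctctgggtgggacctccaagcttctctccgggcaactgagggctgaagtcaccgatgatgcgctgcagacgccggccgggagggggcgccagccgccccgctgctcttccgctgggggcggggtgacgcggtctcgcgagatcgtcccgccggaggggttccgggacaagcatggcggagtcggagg
Rrp1b (chr17:32035912-32036211, plus strand): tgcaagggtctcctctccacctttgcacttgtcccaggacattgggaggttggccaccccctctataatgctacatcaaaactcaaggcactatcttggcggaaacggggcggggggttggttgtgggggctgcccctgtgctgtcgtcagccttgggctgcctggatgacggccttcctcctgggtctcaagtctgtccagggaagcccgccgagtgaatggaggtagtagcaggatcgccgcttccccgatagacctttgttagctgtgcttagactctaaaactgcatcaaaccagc
The Brix1 window holds CCGGAAG at 2 places, and the Wdr12 window, picked for its match, holds TGCGCA. The other 2 windows of Wdr12 hold none of the 4 motifs, nor do the windows shown for Nol9 and Rrp1b, so these windows set no contrast between genes that rose and fell.

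An E-box was present in 8 of the 41 members with a window (19.5%), against 8.09% of all 27025 genes in the promoter table and 11.5% of the 10103 tested genes with a window. CCGGAAG was present in 15 members (36.6%), against 9.93% of all and 19.5% of tested genes. TGCGCA was found in 7 members (17.1%, against 15.7% of tested genes) and AAGATGG in 3 (7.32%, against 8.25%). The stretches around the 8 E-boxes, shown because the E-box is the motif bound by MYC, run on the gene's strand with the E-box in capitals and end where the window ends.
Nop2 (chr6:125131813-125131838, plus strand): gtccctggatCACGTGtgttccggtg
Grwd1 (chr7:45830740-45830765, minus strand): gccggagtcgCACGTGtgaaaccgga
Ltv1 (chr10:13193094-13193119, minus strand): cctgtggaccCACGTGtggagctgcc
Utp20 (chr10:88826765-88826787, minus strand): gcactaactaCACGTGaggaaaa
Pes1 (chr11:3963967-3963992, plus strand): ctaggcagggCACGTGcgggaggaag
Mybbp1a (chr11:72441357-72441376, plus strand): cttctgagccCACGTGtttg
Tsr1 (chr11:74898094-74898119, plus strand): acttggtgcaCACGTGgactgcagaa
Wdr43 (chr17:71616222-71616247, plus strand): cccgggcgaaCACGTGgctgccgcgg
None of these 8 genes was past the threshold by edgeR, DESeq2 or limma-voom, and 0 had an unadjusted edgeR p under 0.05, where 9.74% and 28.2% of all tested genes passed these edgeR thresholds. So few genes give no reading on the E-box. Their log2 fold changes ran from -0.082 (Utp20) to 0.048 (Pes1). A match is a description of letters and says nothing about binding in these cells.

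Other genes of the pathway were taken from 4 lists. Of 125 tested, 18 were past the threshold (14.4%, against 9.74% of all genes), 10 higher and 8 lower, with a median log2 fold change of 0.016. At an unadjusted p under 0.05 there were 32.8%, against 28.2% of all genes. Without D-serine replicate 1, 22 were called (17.6%, against 12.5% of all genes). Calls in both directions occurred in every list. The genes called higher had 716 (Fcf1) to 2957 (C1d) exonic bases. Those called lower had 3328 (Ddx31) to 7365 (Urb1), apart from Exosc7 with 1037. With each library's trend on gene length removed, 23 were called (18.4%, against 16% of all genes). The part of length in the direction of these calls was not tested. Leaving out control replicate 1 or control replicate 2 gave 1 call each among these genes (0.8%, against 0.921% and 0.501% of all genes). Leaving out control replicate 3 gave 4 (3.2%, against 3.34%) and leaving out D-serine replicate 3 gave 5 (4%, against 2.15%).

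Among 16 tested genes of polymerase I transcription and its regulators, 2 rose and 1 fell (18.8% called, against 9.74% of all genes). Myc rose, from 343.3, 341.2 and 339.0 CPM in control to 419.0, 392.6 and 401.6 CPM with D-serine (log2 fold change 0.25, SE 0.041, edgeR adjusted p = 0.00775). Mycn, of the same family, rose from 140.7 to 142.0 CPM in the control libraries to 150.03 to 160.7 CPM (0.15, SE 0.044, adjusted p = 0.0475). Ubtf, which encodes the factor that holds ribosomal DNA in its active form, fell from 334.2, 333.5 and 335.0 to 304.2, 293.7 and 295.5 CPM (-0.17, SE 0.039, adjusted p = 0.0222). No library overlapped between the groups in these 3 genes.

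Of 45 other small subunit factors, 3 rose and 1 fell (8.89% called, against 9.74% of all genes). Nat10, the acetyltransferase of the small-subunit rRNA, fell from 74.8, 70.3 and 68.2 to 59.4, 58.6 and 58.6 CPM (log2 fold change -0.27, SE 0.051, edgeR adjusted p = 0.0114). Ngdn rose by a log2 fold change of 0.27 (adjusted p = 0.0125), Fcf1, a processome protein, by 0.27 (adjusted p = 0.0289) and Nop10, an H/ACA core protein, by 0.19 (adjusted p = 0.0455).

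Of 46 other large subunit factors, 3 rose and 4 fell (15.2% called, against 9.74% of all genes). The smallest p-values belonged to the helicase Dhx33 (log2 fold change -0.27, edgeR adjusted p = 0.0166), Urb1 (-0.25, adjusted p = 0.0185), Mak16 (0.17, adjusted p = 0.0263) and Urb2 (-0.20, adjusted p = 0.0266). In the RNA exosome, the complex that trims rRNA precursors, 2 of 18 genes rose and 2 fell (22.2% called, against 9.74% of all genes). Exosc5 rose from 10.7 to 11.8 CPM in the control libraries to 14.4 to 17.6 CPM (0.52, edgeR adjusted p = 0.00924) and Exosc7 fell (-0.24, adjusted p = 0.0403), and both encode subunits of its ring. The cofactor gene C1d rose (0.25, adjusted p = 0.0160), and Papd5, which encodes a poly(A) polymerase that marks RNA for the exosome, fell (-0.20, adjusted p = 0.0162).

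**Figure D4:**
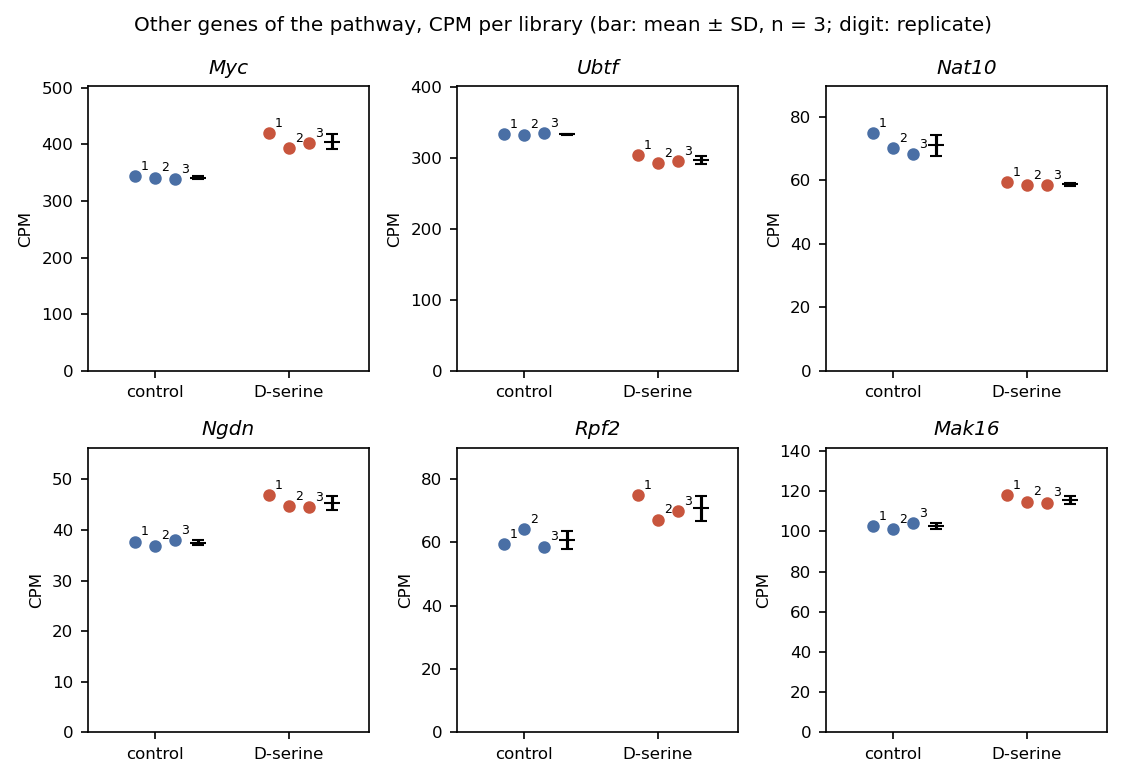
CPM per library (y axis from 0) of 6 other genes of the pathway, with control in blue, D-serine in red, replicate numbers beside the points and mean ± SD (n = 3) as a bar. Myc, Ngdn, Rpf2 and Mak16 lie higher and Ubtf and Nat10 lower with D-serine, without overlap. The panels are examples and not a count of directions. Of the other large subunit factors, the list of Rpf2 and Mak16, 3 rose and 4 fell. Dhx33 and Urb1, with the smallest edgeR p-values of that list, fell and are not shown.

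With all 6 libraries, longer genes tended to have lower fold changes, and among the members the sign of this relation changed without D-serine replicate 1. Over the 49 members, the Spearman correlation of summed exon length with log2 fold change was -0.19, a description across genes that share the same 6 libraries. Without D-serine replicate 1 it was 0.13. Of the 10 members with at least 4000 bases, 9 had a negative log2 fold change with all libraries, from Mybbp1a to Utp20 with 8831 bases. The same share over all tested genes of that length was not taken. Over all tested genes rho was -0.29. The slope of each library's deviation on log2 length was 0.015 to 0.036 in control and -0.072, 0.0058 and -0.0040 in D-serine replicates 1 to 3. D-serine replicate 1 lay outside the range of the other D-serine libraries in 43 of the 49 members. The part of length and of this library in the members' fold changes was not tested. With the length trend of each library removed, 7 members (14.3%) were called, the same 5 with Nop16 and Npm1, of which 5 were lower, against 16% of all genes. With that removal and without D-serine replicate 1, 9 (18.4%) were called, 1 higher (Wdr12) and 8 lower, against 15.6% of all genes. The 8 lower ones were Rrs1, Rrp1b, Nol9, Nop16, Npm1, Fbl, Gar1 and the processome member Noc4l, and Brix1 was not called.

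**Figure D5:**
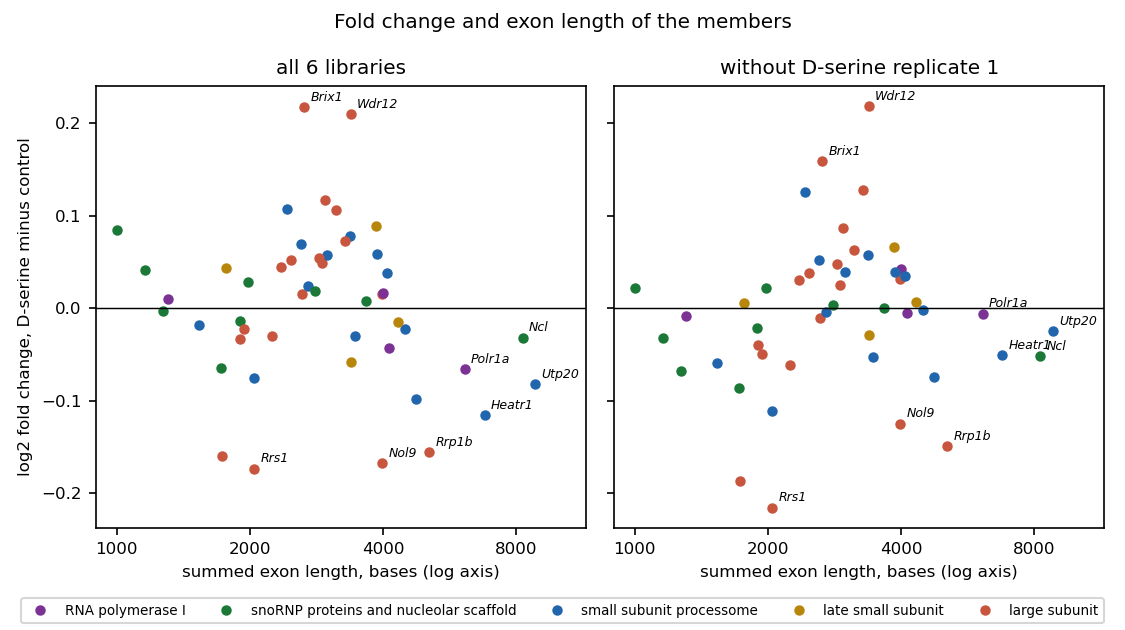
Log2 fold change of each member (y axis, D-serine minus control) against its summed exon length in bases (x axis, log scale), with all 6 libraries on the left and without D-serine replicate 1 on the right. Colours are the 5 roles. The long genes Polr1a, Heatr1 and Utp20 lie nearer 0 on the right, while the long gene Ncl lies further from 0 there (-0.052, against -0.032 on the left). Wdr12 stays above 0.2 in both panels and Rrs1 lies lowest in both.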

How the data were processed

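Poly(A) RNA of 6 libraries was sequenced after a TruSeq Stranded preparation, per the labels. The deposited data are whole-number counts for each gene, not normalized, in 1 table that also gives summed exon length. Trim Galore, HISAT2 and featureCounts are named, with GRCm38 and mm10, per the submitters' processing notes; their versions and the strand and multi-mapping settings are not given in the sources used here. No member shared an exon edge with GENCODE M21 of GRCm38 (0 of 49, and 511 of 23196 genes in all). The members' deposited positions therefore do not match GRCm38, although the notes name it, and the build they follow is uncertain. They are given as deposited, and the RefSeq windows were joined by symbol alone.

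The counts were tested with edgeR 4.0.16 in R 4.3.3 (filterByExpr, TMM scaling, quasi-likelihood F test, no covariate, two-sided, Benjamini-Hochberg adjustment over all 13366 tested genes, threshold 0.05). CPM divide each deposited count by the library size after TMM adjustment. The SE is the size of the log2 fold change divided by the square root of F, and 95% intervals use the t distribution. The code was tested on simulated data. Alternatives were DESeq2 1.42.0, limma-voom (limma 3.58.1), other scalings and filters, a replicate block, removal of each library's trend on log2 exon length (a spline with 5 degrees of freedom), and leaving out each library.

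Named genes were all members, with values per library for those past the threshold and the most abundant of each role, and at most 4 called genes by p from each other list. Values per library of other members, and Rpf2 and Srr, were added after they were seen. The members, roles, lists and motifs were chosen with earlier results of these data known. Some marker genes are not reported here.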

Additional observations from a re-analysis of the deposited data

How the results depend on the processing

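No pattern in the replicate numbers tied the libraries together: deviations of same-numbered libraries correlated at -0.069, 0.020 and -0.019 across genes. With the replicate block, 0 members, 298 of all genes (2.23%) and 6 of the other pathway genes (4.8%) were called. Upper quartile scaling and library totals each called 2 members and 0 lower ones, at medians of 0.045 and 0.044 (log2 fold change) over members and 0.035 and 0.035 over all genes. With the length trend removed, 2132 genes and 5 lower members were called, at a member median of -0.016 (all genes -0.024). With the block added, 1879 genes (14.1%) and 6 members (12.2%), 4 of them lower, were called at a member median of -0.016, and the call of Rrp1b was lost. With the trend removed and without D-serine replicate 1, 2117 genes and 9 members were called, 1 higher and 8 lower, at a median of -0.034 (all genes -0.032), and Fbl was called lower, at -0.12 (adjusted p = 0.0346). Leaving out 1 library gave 0 to 6 members (0 to 12.2%), 0 to 2 higher and 0 to 4 lower. It gave 68 to 1699 of all genes (0.501% to 12.5%) and 1 to 22 of the other pathway genes (0.8% to 17.6%). In the other settings run (DESeq2, limma-voom, DESeq2 size factors, no filter and at least 50 counts) the same 5 members were called, with Nop16 added by DESeq2. That was 12.2% of members with DESeq2 and 10.2% in the rest. Of all genes, 13.5%, 9.43%, 9.88%, 10.6% and 11.4% were called, in the order of these settings, so the members' shares were near the background. The sign of none of the 5 changed in the 17 alternatives. The highest adjusted p over the alternatives was 0.140 for Rrs1, 0.116 for Wdr12, 0.153 for Nol9, 0.142 for Rrp1b and 0.129 for Brix1. Leaving out libraries reduces the samples tested; beyond that the cause was not tested. With 3 libraries a group, SEs of 0.036 to 0.073 limit what can be shown for single members.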
